A study of Solanum lycopersicum with 15 samples.

Results

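Hairy roots of the tomato cultivar M82 carrying edits in SlSCZ were compared with wild-type hairy roots across all genes, using 9 of the 15 libraries of the series: 3 of *slscz-hr5*, 3 of *slscz-hr12* and 3 of wild type. Hairy roots are transformed roots induced by Rhizobium rhizogenes. Each *slscz* line is a root clone from a separate transformation with a CRISPR-Cas9 vector, so the genotype is represented by 2 lines and the 3 libraries of a line are repeats within that clone. Wild-type roots were transformed with R. rhizogenes without a vector, so the presence of the vector and the edits in SlSCZ cannot be told apart in this comparison. Every library pooled the terminal 3 cm of root tips grown on the same medium, and its reads came from the 3′ ends of transcripts (QuantSeq). Libraries of the same clone measure the spread between root samples, and whether the wild-type libraries came from separate clones is not given in the sources used here.

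SCHIZORIZA (SCZ) is a heat-shock-type transcription factor. In Arabidopsis it acts in the root meristem, where it is needed for the cell divisions that set apart the ground tissue layers and for cortex identity. The ground tissue comprises the cortex and the endodermis, and in tomato also the exodermis, the outermost cortical layer, which builds a lignified barrier of its own. SlSCZ is Solyc04g078770, on chromosome 4 by its identifier. The same guides were used for both lines, and their sequences are shown because they define what was altered in all 6 mutant libraries, with the 10 bases at the 3′ end, next to where the PAM would lie, in capitals.
guide 1: tattgtttctTGGGGTGAAG
guide 2: cattcatatcATACGGGTTC
guide 3: acccgagtaaTTATAACCCG
In both lines the study's genotyping gives a deletion that reaches from the first into the second exon and an early stop codon, and in *slscz-hr12* it also gives the loss of an amino acid at the first guide.

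The edited gene itself was read at a low level. SlSCZ had 4.6, 6.33 and 4.16 CPM (counts scaled to the library size, after TMM normalization) in the wild-type libraries, 7.29, 5.33 and 3.32 in *slscz-hr5* and 8.42, 8.42 and 6.47 in *slscz-hr12*. The groups overlapped, and the log2 difference of *slscz* from wild type was 0.18 ± 0.29 (SE; limma-voom adjusted p = 0.735). The deletion lies at the start of the gene and the reads at its end, so this level does not check the edit. SlEXO1 (Solyc09g011120), a zinc finger transcription factor edited in the other mutant of the series, differed from wild type by 0.11 ± 0.42 (log2, adjusted p = 0.895).

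Of 34688 genes in the count table, 16189 had enough counts to be tested, and 2463 (15.2%) passed both limits between *slscz* and wild type, which were 0.05 for the adjusted p and 1.3-fold for the change, and are called here. More genes were lower in *slscz*, 1355 (8.37%), than higher, 1108 (6.84%), although on library sizes without TMM scaling 52.1% of the calls were higher. The study states a limit of 1.3 without its scale. The linear scale was chosen here, and on the log2 scale 474 genes were called. The 9 libraries held 2726538 to 8942819 counts, and the deepest was wild-type library 3. The number of calls leans on that library. Without it 1438 genes were called, of which 33.4% were higher in *slscz*, against 45% with all libraries. Leaving out any other library gave 1829 to 2630 calls. A change in the share of a cell type and a change in RNA per cell cannot be told apart in these pooled roots.

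Most changes were modest. The median called gene differed 1.64-fold among the higher genes and 1.74-fold among the lower genes. Changes of 1.3 to 1.5-fold made up 364 of the higher and 352 of the lower calls, and changes of 1.5 to 2-fold another 448 and 513. Larger changes were more often falls: 227 genes rose and 380 fell by 2 to 4-fold, and 69 rose and 110 fell by 4-fold or more.

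**Figure D1:**
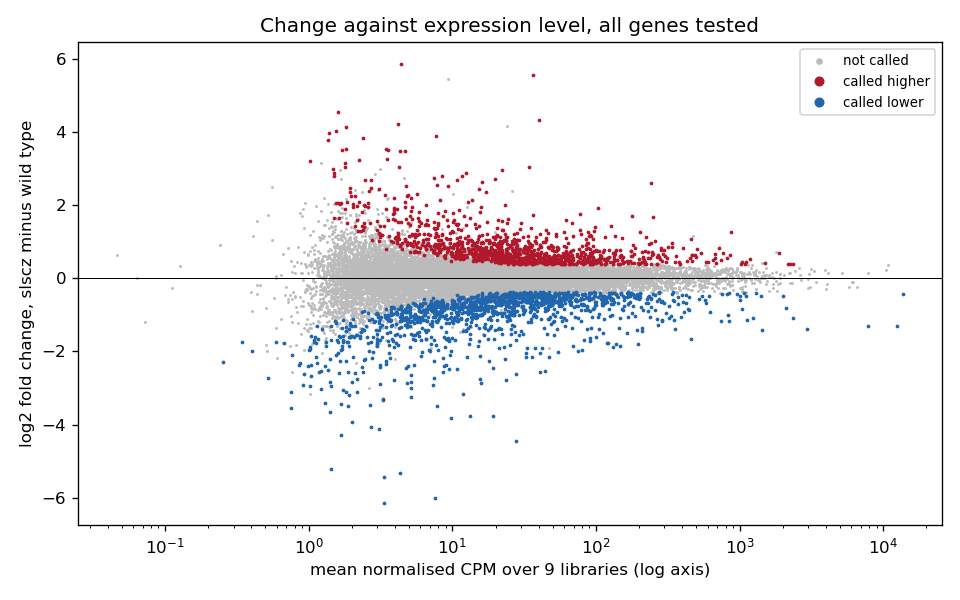
Each point is 1 of the 16189 genes tested, placed by its mean normalised CPM over the 9 libraries (log axis) and its log2 fold change of slscz minus wild type, with called genes in red (1108 higher) and blue (1355 lower). The cloud narrows to the right, and the large changes sit mostly at low and middle levels.

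Genes that fell had the higher median level in wild type, and genes that rose had it in *slscz*. In wild type the median gene that fell had 27.1 CPM and reached 15.2 CPM in *slscz*, while the median gene that rose went from 17.5 to 28.9 CPM, beside a median of 14.5 CPM over all genes tested. Together the genes called lower held 16.5, 16.4 and 16% of all counts in the wild-type libraries and 8.38 to 10.6% in the 6 *slscz* libraries. The genes called higher held 5.23, 5.49 and 5.61% in wild type and 7.99 to 9.13% in *slscz*. Since these genes were chosen by the same values, the levels and the shares describe the size of the shift and test nothing.

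Smaller changes were called at higher expression. Among genes with a mean under 5 CPM over all 15 libraries, 319 of 3839 (8.31%) were called, with a median change of 3.2-fold and a median standard error of 0.387 log2 units over the genes tested. Between 5 and 20 CPM, 807 of 5493 (14.7%) were called, at a median of 1.83-fold. Between 20 and 100 CPM, 1000 of 5047 (19.8%) were called, at a median of 1.52-fold. At 100 CPM and over, 337 of 1810 (18.6%) were called at a median of 1.5-fold, with a standard error of 0.0992. The order of the upper classes was not stable. Without wild-type library 3 the shares from the lowest class to the highest were 3.69, 6.81, 12.2 and 16.2%, and at a log2 change of at least 1.3 they were 5.83, 2.75, 1.37 and 1.66%. Falls outnumbered rises in every class, by the smallest margin between 20 and 100 CPM, where 47.8% of calls were rises.

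**Figure D2:**
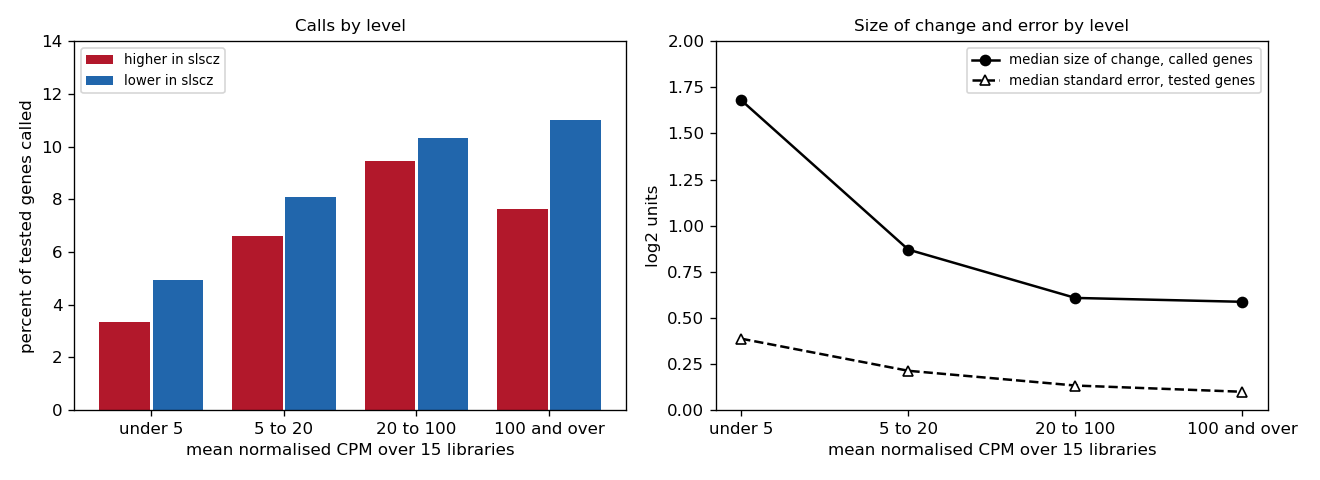
Left, the percent of tested genes called higher (red) and lower (blue) in slscz in 4 classes of mean normalised CPM. Right, the median size of change of called genes and the median standard error of tested genes, both in log2 units. The size of called changes falls from 1.68 log2 units under 5 CPM to 0.587 at 100 CPM and over, as the error falls from 0.387 to 0.0992.

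The largest rises, among genes with a mean of at least 10 CPM that were called in both lines and whose 6 *slscz* libraries all lay above wild type, ran from 2.37 to 5.57 on the log2 scale. The files and the reference pair no identifier with a name, so genes are named only where the study names them. Solyc01g103340 had 1.23, 0.835 and 1.39 CPM in wild type, 51.4, 51.3 and 55.2 in *slscz-hr5* and 52.1, 47.2 and 66.7 in *slscz-hr12*. The groups stand far apart, and the log2 change was 5.57 ± 1.86 (SE, limma-voom adjusted p = 0.0436). In the *slexo1* libraries that share the fit, the gene had 1.73 to 5.45 CPM in *slexo1-hr6* and 50.6 to 63 CPM in *slexo1-hr7*, and with only the 9 libraries in the fit the error was 0.404 and the adjusted p 8.42e-07. In the fit over all libraries the call was lost in 8 of the 9 settings that leave out a library, all but the omission of *slscz-hr12* library 4. Its neighbour Solyc01g103320 had no count in any wild-type library and 11 to 50 counts in each *slscz* library, at least 9.97-fold higher when wild type is set at 3 counts per library. The gene before it, Solyc01g103310, rose from 0.649 to 6.1 CPM, a log2 change of 3.05 ± 0.76 (adjusted p = 0.00831).

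Solyc12g042980 was at 11.7, 1.55 and 1.85 CPM in wild type, 51, 49.2 and 32.5 in *slscz-hr5* and 46.7, 113.5 and 52.6 in *slscz-hr12*. Wild-type library 2 was well above the other two wild-type libraries and still below every *slscz* library (log2 change 4.34 ± 0.58, adjusted p = 3.33e-05). Solyc12g011023 and its neighbour Solyc12g011030 rose together. The first had 6.75, 4.89 and 5.31 CPM in wild type and 38.5 to 79.8 CPM in *slscz* (3.05 ± 0.31, adjusted p = 1.39e-06). The second had 1.53 to 2.54 CPM in wild type and 6.05 to 26.9 CPM in *slscz* (2.79 ± 0.64, adjusted p = 0.00448), and its adjusted p was 0.0701 without wild-type library 3. In both lines, library 4 was the lowest for Solyc12g011030, with 7.01 and 6.05 CPM. Solyc08g008045 was the most abundant of the strong rises. It had 56.2, 46.3 and 62.3 CPM in wild type, 461, 317.2 and 310.3 in *slscz-hr5* and 355.8, 274.5 and 296.6 in *slscz-hr12*, with no overlap (2.61 ± 0.23, adjusted p = 2.76e-07).

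Several of the strong rises carry names from the study. Solyc03g096670, a protein phosphatase 2C, belongs to a family in which some Arabidopsis members restrain abscisic acid signalling. It had 4.61, 3.58 and 2.77 CPM in wild type, 21.5, 46.3 and 18.3 in *slscz-hr5* and 14.9, 61.6 and 25.4 in *slscz-hr12* (log2 change 2.95 ± 0.61, adjusted p = 0.00199). Library 3 was the highest in both lines. Solyc01g096320, SlATHB-5, is a homeodomain-leucine zipper transcription factor whose Arabidopsis relative responds to abscisic acid. Its library 3 was again the highest in both lines: 2.15, 1.43 and 2.31 CPM in wild type, 9.21, 24.1 and 6.46 in *slscz-hr5* and 7.06, 36.1 and 7.51 in *slscz-hr12*. Its change of 2.68 ± 0.78 (adjusted p = 0.0217) was not called when any of the wild-type libraries was left out (adjusted p up to 0.184).

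Solyc09g065430, a lipid transfer protein, is of a family of small proteins that carry lipids outside the cell. It had 1.53, 2.39 and 2.08 CPM in wild type, 20.7, 15.6 and 9.96 in *slscz-hr5* and 25, 21.7 and 12.3 in *slscz-hr12*, so that every *slscz* library lay above every wild-type library (2.87 ± 0.57, adjusted p = 0.00146). Solyc01g080680, a sugar transporter of the ERD6 type, had 2.46, 4.77 and 5.08 CPM in wild type and 15.9 to 32.2 CPM in *slscz* (2.37 ± 0.42, adjusted p = 0.000523). The remaining strong rise, Solyc01g080990, had 1.84 to 5.73 CPM in wild type and 19 to 36.5 CPM in *slscz* (2.71 ± 0.44, adjusted p = 0.000223).

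The largest falls by the same rule ran from -2.44 to -4.46. Solyc09g090990 had 81.7, 70.1 and 76.2 CPM in wild type, 4.99, 4.44 and 3.87 in *slscz-hr5* and 1.36, 1.9 and 4.59 in *slscz-hr12*. The wild-type libraries were tightly grouped and every *slscz* library was far below them (log2 change -4.46 ± 0.81, adjusted p = 0.000632). In the *slexo1* libraries it had 3.63 to 21.2 CPM in *slexo1-hr6* and 44.8 to 47.1 CPM in *slexo1-hr7*. Solyc10g005390 fell from 21.2, 40.9 and 36.7 CPM to 2.31 to 6.53 in *slscz-hr5* and to 0.272, 0.814 and 4.59 in *slscz-hr12* (-3.76 ± 0.56, adjusted p = 0.000103). The most precise of the falls was Solyc04g005610. It had 75.5, 112.1 and 103.6 CPM in wild type, 23, 15.1 and 15.5 in *slscz-hr5* and 11.9, 17.4 and 20.6 in *slscz-hr12* (-2.54 ± 0.19, adjusted p = 9.46e-08). Solyc06g075970 had 54.6, 62.5 and 47.5 CPM in wild type and 4.61 to 9.8 CPM in *slscz* (-2.79 ± 0.24, adjusted p = 2.01e-07).

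The other 6 of these falls, Solyc07g056200, Solyc05g007770, Solyc07g009230, Solyc09g006005, Solyc06g073165 and Solyc03g044900, changed by -2.44 to -2.86. In all of them but Solyc05g007770, *slscz-hr12* library 4 stood nearest to wild type. Solyc09g006005 was at 2.72, 22 and 44.8 CPM in that line against 76.1 to 96.2 CPM in wild type, and Solyc07g009230 was at 4.89, 4.61 and 26.9 CPM against 44.8 to 87.1 CPM. All 10 of the strongest falls kept their call in all 20 alternative settings in which they were tested.

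**Figure D3:**
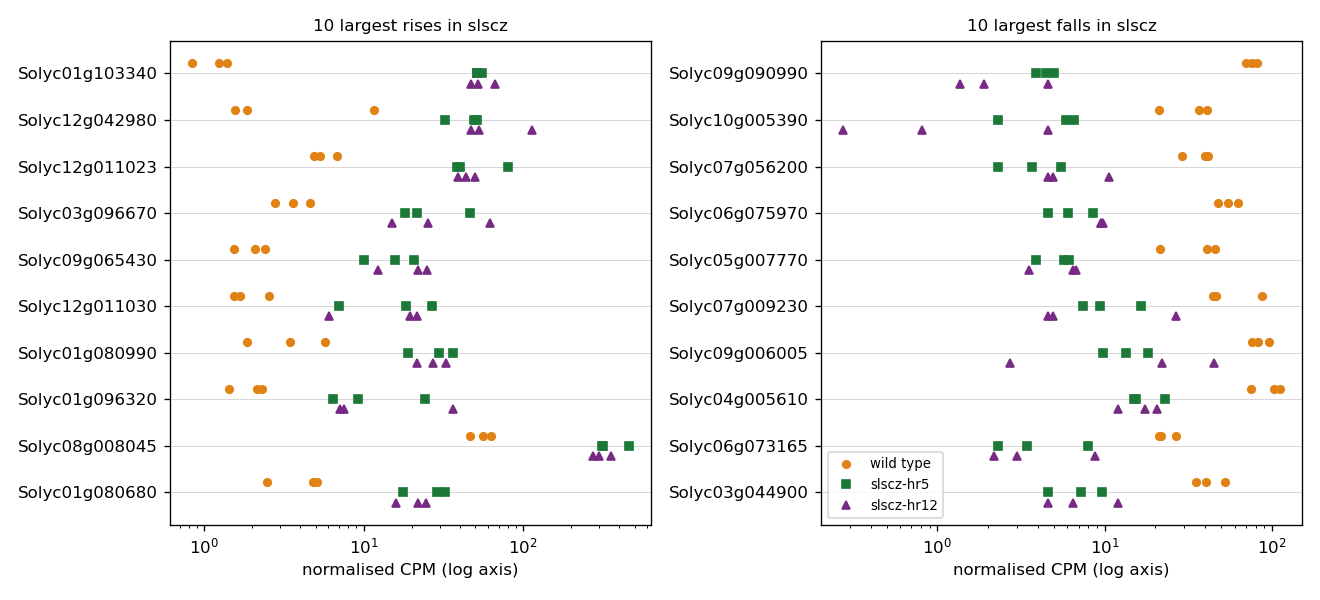
Normalised CPM (log axis) in each library for the 10 largest rises (left) and the 10 largest falls (right) in slscz, with circles for the 3 wild-type libraries, squares for slscz-hr5 and triangles for slscz-hr12. The 6 slscz libraries never overlap the wild-type libraries, which the selection required, and for Solyc10g005390 the slscz-hr12 triangles spread from 0.272 to 4.59 CPM.

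Abundant transcripts moved as well, mainly downward. The 5 most abundant genes called lower had means of 2345 to 13678 CPM over the 9 libraries, and 4 of them fell more than 2-fold. Solyc09g010800 had 20043, 21233 and 20446 CPM in wild type, 7474, 9028 and 8903 in *slscz-hr5* and 5560, 10699 and 9097 in *slscz-hr12* (-1.31 ± 0.14, adjusted p = 1.95e-06). Solyc07g017570 had 11347, 15347 and 12484 CPM in wild type and 4446 to 5899 CPM in *slscz* (-1.31 ± 0.12, adjusted p = 2.76e-07). Solyc06g076140 fell from 4463 to 5293 CPM to 1376 to 2222 CPM (-1.38 ± 0.13), and Solyc09g007920 by a log2 change of -1.10 ± 0.15. The most abundant gene called, Solyc01g111170, changed least, from 14941 to 18659 CPM in wild type to 11140 to 13854 CPM in *slscz* (-0.42 ± 0.09, adjusted p = 0.00274). Not all of these falls were particular to *slscz*. In the *slexo1* libraries Solyc09g010800 had 6594 to 9393 CPM, within the *slscz* range, and Solyc01g111170 had 8322 to 10679 CPM, below every *slscz* library. Solyc07g017570 (7528 to 11218 CPM) and Solyc06g076140 (2398 to 3829 CPM) lay between *slscz* and wild type there. Solyc09g007920 (3299 to 4908 CPM) overlapped wild type.

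The 5 most abundant genes called higher were smaller in level and in change, with means of 1495 to 2354 CPM and log2 changes of 0.38 to 0.69. Solyc02g092790 changed most: 1254, 1381 and 1348 CPM in wild type, 2520, 2249 and 2142 in *slscz-hr5* and 2127, 2048 and 1837 in *slscz-hr12* (0.69 ± 0.11, adjusted p = 0.000184). The others, Solyc11g069430, Solyc01g008080, Solyc04g077020 and Solyc06g060760, lay just past the 1.3-fold limit, were called in *slscz-hr5* and not in *slscz-hr12*, and lost their call in 2 to 12 of the 20 alternative settings. The direct difference between the lines was not past the threshold for any of them (adjusted p at least 0.981). Among them, Solyc01g008080 lies in the stretch of chromosome 1 described below, where wild type stood apart from both mutants.

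Few genes were switched on or off outright. The rule asked for at most 3 counts in every library of a side and at least 10 in every library of the other. By it 2 genes were present in *slscz* and not in wild type, and 7 the other way. The *slexo1* libraries were not part of this rule. The first of the 2 present in *slscz*, Solyc01g020526, had 1, 1 and 2 counts in wild type and 33 to 76 counts in each *slscz* library, and it too was low in *slexo1-hr6* (0.495 to 1.16 CPM) and high in *slexo1-hr7* (17.2 to 20.4 CPM). Its adjusted p was 0.0629 in the fit over all libraries and 2.78e-05 over the 9 libraries, so it was not among the calls. Solyc01g020526 also lies in that stretch of chromosome 1. The other gene present in *slscz* and not in wild type was Solyc01g103320, described above, which lies outside the stretch. It was also read in *slexo1*, at 1.44 to 2.81 CPM in *slexo1-hr6* and 4.18 to 6.22 CPM in *slexo1-hr7*.

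Among the genes present in wild type and not in *slscz*, Solyc10g012005 had 15, 39 and 16 counts in wild type and none in any *slscz* library, at least 5.77-fold lower at a floor of 3 counts per library (adjusted p = 0.000281). It was low in *slexo1-hr6* too (0, 0.743 and 0 CPM), with 1.8 to 2.23 CPM in *slexo1-hr7*. Solyc09g064750 had 27, 84 and 51 counts in wild type and 1 count in all *slscz* libraries together (adjusted p = 0.00414). In *slexo1-hr6* it was at 9.25 to 10.6 CPM, near the wild-type 8.29 to 11.8 CPM, and in *slexo1-hr7* at 0 to 0.479 CPM. Solyc06g033850 had 26, 98 and 77 counts in wild type and 0 to 2 in each *slscz* library (adjusted p = 0.00216). Solyc05g009480 had 14, 39 and 23 counts against 1 to 3 (adjusted p = 2.28e-05). In *slexo1* Solyc06g033850 was read at 6.89 to 29.5 CPM and Solyc05g009480 at 1.08 to 2.48 CPM. Without molecular identifiers in the reads, these floors allow for counting error alone.

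Whether both lines changed alike was asked in each line and then directly between them. Against wild type, 1922 genes (11.9%) were called in *slscz-hr5*, 877 higher and 1045 lower, and 1695 genes (10.5%) in *slscz-hr12*, 808 higher and 887 lower. The lists had 1206 genes in common in the same direction, 549 higher and 657 lower, which is 62.7% of the *slscz-hr5* calls and 71.2% of the *slscz-hr12* calls. No gene was called in opposite directions. Both comparisons use the same 3 wild-type libraries, so the overlap does not measure the lines independently. Without wild-type library 3 the lines had 1243 and 866 calls with 678 in common. Without *slscz-hr5* library 3 that line had 1256 calls, and without *slscz-hr12* library 2 the other had 983, with 785 in common. The 2463 genes called for the genotype were selected on these same libraries, which favours a like sign in both lines and a gap from wild type, so their pattern is only described. All had the same sign in both lines. In 1999 of them (81.2%) the 6 *slscz* libraries did not overlap the wild-type libraries, 908 above and 1091 below. Over all genes tested, 3068 (19%) showed no such overlap.

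In the direct comparison of *slscz-hr12* with *slscz-hr5* the difference uses no wild-type library, but its error comes from the fit over all 15 libraries. This comparison called 17 genes (0.105%), 9 higher and 8 lower in *slscz-hr12*, and 773 genes (4.77%) had an unadjusted p under 0.05. Libraries with the same number correlated between the lines, most in library 4 (r = 0.422) and least in library 3 (r = 0.103). With that number as a block over the 6 *slscz* libraries, the same comparison called 47 genes, 20 higher and 27 lower. The count was 5 to 9 genes without *slscz-hr5* library 2, 3 or 4, or without *slscz-hr12* library 2 or 3. Of the 2463 genotype calls, 4 were among the 17 genes. The median difference between the lines was 0.152 log2 units over the genotype calls and 0.15 over all genes tested, while the median change of the calls from wild type was 0.76. Another 716 genes were called in *slscz-hr5* only and 489 in *slscz-hr12* only, and 15 of these differed between the lines by the direct test.

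The genes that did differ between the lines mostly had 1 line at the wild-type level. Solyc09g066030 was all but unread in wild type, with 0, 0 and 0.231 CPM, and in *slscz-hr5*, with 0.384, 0 and 0 CPM, and stood at 76.3, 64.1 and 75.9 CPM in *slscz-hr12* (log2 difference between the lines 8.75 ± 0.73, adjusted p = 2.3e-06). Solyc07g007040 had 29.8 to 34.4 CPM in wild type, 27.6 to 44.6 in *slscz-hr5* and 120.6 to 172.5 in *slscz-hr12* (1.97 ± 0.16, adjusted p = 2.3e-06). Solyc09g005420 and Solyc02g063547 were likewise higher in *slscz-hr12*, by 1.49 ± 0.26 and 0.78 ± 0.13. In the *slexo1* libraries Solyc07g007040 was at 127 to 136 CPM in *slexo1-hr6*, near *slscz-hr12*, and at 18.5 to 25.6 CPM in *slexo1-hr7*. Over both *slexo1* lines Solyc09g066030 had 0 to 0.248 CPM, Solyc09g005420 305 to 609 CPM and Solyc02g063547 50.2 to 70.1 CPM.

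Solyc01g081250 went the other way. It had 22.4, 16.6 and 20.1 CPM in wild type, 21.9, 26.3 and 22.1 in *slscz-hr5* and 3.53, 7.06 and 3.13 in *slscz-hr12* (-2.47 ± 0.29, adjusted p = 0.000341). Solyc07g052900 was at 45.2 to 48.8 CPM in wild type, 44.5 to 56.3 in *slscz-hr5* and 13.3 to 19.6 in *slscz-hr12* (-1.64 ± 0.18, adjusted p = 0.000106). Solyc12g056650 and Solyc03g031990 were lower in *slscz-hr12* by smaller amounts, -0.93 ± 0.16 and -0.89 ± 0.17. In 2 genes it was *slscz-hr5* that stood apart from wild type. Solyc12g160670 had 14.3 to 23 CPM in wild type, 2.21 to 3.84 in *slscz-hr5* and 14.1 to 27.3 in *slscz-hr12* (2.85 ± 0.42, adjusted p = 0.00471). Solyc09g011160 had 9.21 to 10.4 CPM in wild type, 24.6 to 28.8 in *slscz-hr5* and 10.3 to 15.9 in *slscz-hr12* (-1.05 ± 0.20, adjusted p = 0.0477). In *slexo1* Solyc12g160670 was low in both lines (0.246 to 2.23 CPM). Solyc01g081250 was low in *slexo1-hr6* (0.496 to 1.73 CPM) and at 13 to 16.2 CPM in *slexo1-hr7*. Over both *slexo1* lines Solyc07g052900 had 41.4 to 62.9 CPM, Solyc12g056650 36.9 to 50.5, Solyc03g031990 60.3 to 90.9 and Solyc09g011160 11.1 to 20.

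**Figure D4:**
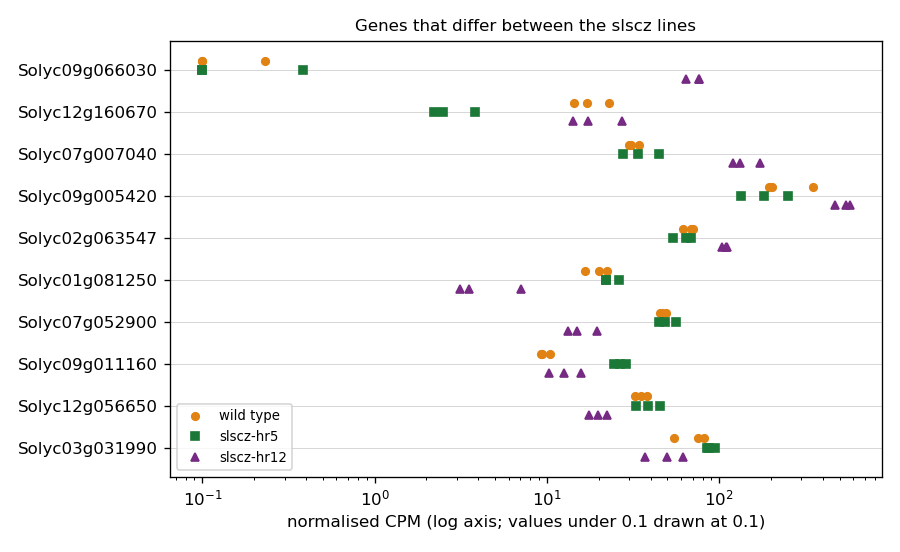
Normalised CPM (log axis, values under 0.1 drawn at 0.1) in each library for the 10 genes chosen for the largest difference between the slscz lines, with circles for wild type, squares for slscz-hr5 and triangles for slscz-hr12. In most rows the symbols of 1 line lie over the wild-type circles and those of the other line stand apart, as in Solyc09g066030, where slscz-hr12 is at 64.1 to 76.3 CPM.

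Regulators of the endodermis, and homologues of such regulators named in the study, were next examined. The endodermis is the innermost ground tissue layer and seals the wall with the Casparian strip. Of 10 identifiers of this group, 8 were in the table and 7 were tested. None rose, 2 fell (28.6% called, beside 15.2% of all genes tested) and 5 were not called, and their median log2 change was -0.27, beside 0.02 over all genes tested. SlMYB36 (Solyc07g006750), whose Arabidopsis counterpart switches on the genes of the Casparian strip, had 16, 13 and 15.9 CPM in wild type, 5.37, 7.99 and 9.78 in *slscz-hr5* and 10.3, 10.6 and 8.76 in *slscz-hr12*. All 6 *slscz* libraries lay below wild type (-0.71 ± 0.19, adjusted p = 0.0123). By line, SlMYB36 was called in *slscz-hr5* (limma-voom adjusted p = 0.0171) and not in *slscz-hr12* (0.105), and the direct difference between the lines was not called. Its relative SlMYB36-b (Solyc04g077260) had 6.14, 8.83 and 9.46 CPM in wild type and 3.07 to 6.04 CPM in *slscz* (-0.75 ± 0.21, adjusted p = 0.0174), and lost its call without wild-type library 3 or 4. SlMYB36-b was called in neither line alone (limma-voom adjusted p = 0.0515 in *slscz-hr5* and 0.102 in *slscz-hr12*). The study found the strip absent in hairy root mutants of SlMYB36 and not in those of SlMYB36-b.

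The tested homologues of the Arabidopsis membrane proteins that scaffold the strip were not called. In the study, reporters of SlCASP1 and SlCASP2 marked the strip, while that of SlCASP3 did not. SlCASP1 (Solyc06g074230) had 27.9, 33.9 and 23.3 CPM in wild type and 19.4 to 38 CPM in *slscz* (-0.06 ± 0.19), SlCASP2 differed by -0.45 ± 0.33 and SlCASP3 by 0.21 ± 0.17. SlSGN3, the receptor kinase that monitors the strip in Arabidopsis, differed by -0.07 ± 0.18, and SlSHR, whose Arabidopsis counterpart moves out of the stele and specifies the endodermis, by -0.27 ± 0.28. The endodermal markers SlCASP1, SlCASP2 and SlMYB36 were thus read in all 9 libraries. SlSCZ and SlEXO1 were read as well, the latter with a single count in *slscz-hr5* library 2. The study reports both in the cortex and in other layers, so they mark no layer by themselves. The vascular marker SlCIF1 was not analysed here.

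A second group comprised 20 identifiers of transcription factors that the study picked as enriched in the exodermis and mutated in a hairy root screen. Both groups were listed with earlier results of these data known, so their shares of calls are only described. Of these 19 were in the table and 15 were tested, of which 2 rose, 5 fell (46.7% called, beside 15.2% of all genes tested) and 8 were not called, with a median log2 change of -0.07, beside 0.02 over all genes tested. Solyc03g093890, a MYB factor that the study names SlMYB13 in a table and differently in a caption, fell most. It had 14.7, 11.9 and 16.2 CPM in wild type, 1.92, 3.19 and 4.8 in *slscz-hr5* and 2.17, 2.44 and 5.84 in *slscz-hr12*, with a wide gap between the groups (-1.98 ± 0.24, adjusted p = 9.93e-06). SlMGP (Solyc01g099340), a zinc finger factor whose Arabidopsis counterpart MAGPIE acts with SHORT-ROOT in the ground tissue, had 9.82, 12.9 and 15.9 CPM in wild type and 5.16 to 9.8 CPM in *slscz* (-1.03 ± 0.22, adjusted p = 0.00301). Its highest *slscz* library, *slscz-hr12* library 4, touched the lowest wild-type library.

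SlWRK31 (Solyc05g007110), of the WRKY family, changed by -0.63 ± 0.12 (adjusted p = 0.00125), SlMYB68 (Solyc11g069030) by -0.54 ± 0.10 (adjusted p = 0.000842) and SlNAC041 (Solyc01g009860) by -0.53 ± 0.10 (adjusted p = 0.00144). In each of these the groups did not overlap. SlATHB-5, described above, was the larger of the rises. SlSHN1 (Solyc01g005630), a factor whose Arabidopsis relatives promote the cuticle, had 2.76, 3.46 and 3.23 CPM in wild type, 4.99, 7.28 and 4.8 in *slscz-hr5* and 8.42, 6.51 and 7.51 in *slscz-hr12* (0.99 ± 0.30, adjusted p = 0.0258). It lost its call without any of the wild-type libraries (adjusted p up to 0.126), and it lies in the stretch of chromosome 1 described next, as does SlNAC041.

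Identifiers of tomato genes follow their order along a chromosome, so neighbours can be compared without coordinates. In windows of 50 tested genes, a stretch at the start of chromosome 1, from Solyc01g005000 to Solyc01g049960, had higher medians in *slscz* than in wild type. There 12 of 13 windows had a median log2 change of at least 0.2 in both lines, and the exception had 0.27 in *slscz-hr5* and 0.17 in *slscz-hr12*. No other of the 616 windows did so, and their medians in *slscz* ran from -0.28 to 0.22. The stretch holds 350 tested genes with a median change of 0.37 (1.29-fold), and 78.6% of them were above 0. Of these genes 92 (26.3%) were called higher and 12 (3.43%) lower, beside 6.84% and 8.37% of all genes tested. On the rest of chromosome 1, 5.29% were higher and 8.87% lower, and the median was 0.01.

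Both lines showed the stretch alike, with medians of 0.36 in *slscz-hr5* and 0.39 in *slscz-hr12*, and the direct difference between them had a median of -0.03. It is the wild-type libraries that stand apart from all others there. As deviations from each gene's mean log2 level over the 15 libraries, the medians over the stretch were -0.29, -0.26 and -0.28 in wild type and 0.06 to 0.12 in *slscz*. In the 6 *slexo1* libraries, which have another edited gene and were set against the same wild type, they were 0.03 to 0.11. The stretch was picked after its values were seen, so no test is given, and what sets wild type apart there was not tested. It accounts for 8.3% of all higher calls. Outside it 1016 genes were called higher and 1343 lower.

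**Figure D5:**
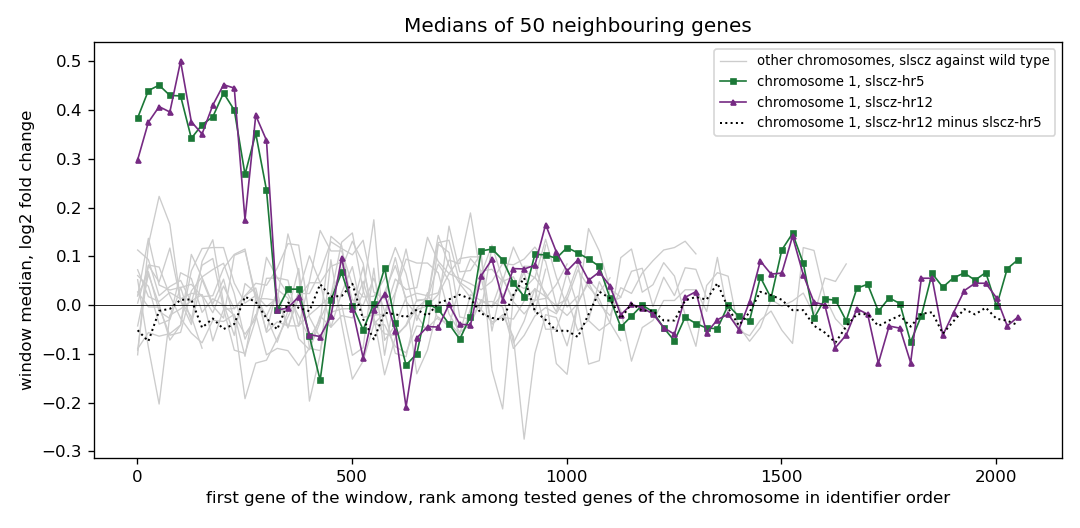
Median log2 fold change of windows of 50 neighbouring tested genes against the rank of the window's first gene along its chromosome, for chromosome 1 in slscz-hr5 (squares) and slscz-hr12 (triangles), their direct difference (dotted) and the other chromosomes in slscz (grey). Both lines stay high at the start of chromosome 1 and drop to about 0 beyond the stretch, while the dotted line stays near 0.

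Some genes called in the same direction lay side by side elsewhere. Outside the stretch, 15.8% of the genes called higher had a tested neighbour called higher, beside 12.4% of all genes tested there. Of the genes called lower there, 23.6% had a neighbour called lower, beside 16% of all genes tested. Neither difference was tested. There were 14 runs of at least 3 adjacent genes that rose, 7 of them in the stretch, and 20 runs that fell, none in the stretch. The longest was a run of 6 falls on chromosome 12, from Solyc12g044930 to Solyc12g045037, with log2 changes of -0.80 to -1.41. Its last gene was abundant: Solyc12g045037 had 2498, 2387 and 2457 CPM in wild type, 623.8, 839.2 and 1066 in *slscz-hr5* and 933.2, 875.2 and 1257 in *slscz-hr12* (-1.41 ± 0.14, adjusted p = 1.11e-06). Its smallest change was in Solyc12g044940, which lost its call in 10 of 20 alternative settings.

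The next runs of falls held 4 genes each. Solyc04g007000 to Solyc04g007070 on chromosome 4 changed by -0.43 to -1.51, and Solyc10g011925 to Solyc10g012005 on chromosome 10 by -0.46 to -5.21, the latter ending in the gene with no count in *slscz*. Among the longest runs of rises, of 4 genes each, Solyc01g006350 to Solyc01g006400 and Solyc01g009290 to Solyc01g009370 lie in the stretch of chromosome 1 (0.64 to 0.79 and 0.55 to 1.14). Solyc05g005920 to Solyc05g005950 on chromosome 5 lies outside it (0.63 to 1.22). The first gene of that run is a member of the NRT1/PTR transporter family, which carries nitrate, peptides and other small solutes, and had 2.46, 4.18 and 3.23 CPM in wild type, 9.98, 10.6 and 6.64 in *slscz-hr5* and 10.9, 6.79 and 6.47 in *slscz-hr12* (1.22 ± 0.31, adjusted p = 0.00903). Each of these runs of rises holds a member with an unstable call. Of 20 alternative settings, Solyc01g006360 lost its call in 7, Solyc01g009290 in 13 and Solyc05g005950 in 9. A further run of 4 rises, Solyc07g043400 to Solyc07g043480 on chromosome 7 (0.42 to 0.59), was not followed through these settings. Reads of adjacent genes of near-identical sequence can be shared between them, and the identifiers do not show which neighbours are such copies.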

How the data were processed

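The deposited table holds estimated counts per gene without normalization. Per the paper's methods and the labels, the authors trimmed QuantSeq 3′ reads with Trimmomatic and pseudo-aligned them to the ITAG4.1 cDNA sequences with kallisto (0.46.2 in the submitters' processing notes). Values that were not whole were rounded to whole counts here. Columns were matched to lines by name. The wild-type columns are numbered 2 to 4 and the labels 1 to 3, so they were used as a group and are named by the number in the table. The number of unmatched columns was 0.

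The analysis used R 4.3.3, limma 3.58.1, edgeR 4.0.16 and, as an alternative, DESeq2 1.42.0. Genes were kept by filterByExpr by genotype (minimum count 10, minimum total 15), normalized by TMM and fitted with voom, lmFit and eBayes over all 15 libraries, with 3 genotype groups or 5 line groups. P-values were adjusted by Benjamini-Hochberg, and calls needed 0.05 or less and a linear change of 1.3-fold or more. CPM values use TMM-scaled library sizes. The fit was tested on simulated data, with changes set in 64, 65 and 63 genes, far fewer than were called here. Of changes of 1.5, 2 and 4-fold it recovered 35.9, 72.3 and 84.1%, with 2 false calls. A gene that was not called may therefore still have changed, above all by less than 2-fold.

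Named genes are the edited genes and the called members of the lists, with uncalled members where the Casparian strip is described; the 10 largest rises and falls with a mean of at least 10 CPM, called in both lines and not overlapping wild type; the 5 most abundant calls each way; up to 4 switched genes each way; up to 5 genes each way with the largest line difference, at least 10 CPM and no overlap between lines; and the 3 longest runs each way. Of runs of equal length, the first in identifier order were taken. Solyc01g103310 was added after its values were seen. The members and lists were chosen with earlier results of these data known. Groups of genes by annotation were not analysed here, since 0 identifiers of the table matched the gene table at hand. Same-numbered libraries of *slscz-hr5* and *slscz-hr12* correlated in their deviations from the line means (r = 0.188, 0.103 and 0.422), each over 0.1, so the numbers were taken to pair the lines. The pairing is weak for library 3, since *slscz-hr5* library 2 and *slscz-hr12* library 3, of unlike number, had r = 0.121. Wild type and *slscz* were not paired (r from -0.0164 to 0.0534). Guide sequences come from the study's supplementary table. Alternatives covered the test, normalization, filters, thresholds, libraries in the fit, weights and blocks.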

Additional observations from a re-analysis of the deposited data

Results flagged for a closer look

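In 9 of 94 named genes, the gap of the highest or lowest *slscz* library to its nearest neighbour exceeded Dixon's 95% critical value for the 6 libraries. That value is built to be passed by chance in about 1 in 20 groups, and these genes were chosen partly on the same libraries, so the number of such genes is not read further. Above the others were *slscz-hr12* library 3 for Solyc12g042980 (113 CPM), *slscz-hr5* library 2 for Solyc12g011023 (79.8 CPM), *slscz-hr5* library 3 for Solyc09g064750 (0.177 CPM, a lone count) and SlMYB77, Solyc04g079360 (7.28 CPM), *slscz-hr12* library 2 for SlMYB54, Solyc10g081320 (13 CPM), and *slscz-hr12* library 4 for Solyc04g007050 (194 CPM). Below the others were *slscz-hr5* library 2 for Solyc06g076140 (1376 CPM), *slscz-hr12* library 2 for SlMYB68, Solyc11g069030 (20.6 CPM), and *slscz-hr12* library 4 for Solyc01g006400 (233 CPM).

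Of the 17 genes called between the lines by the direct limma-voom test, 10 were named for the largest differences, and their values restate that choice. The log2 difference of *slscz-hr12* minus *slscz-hr5* was 8.75 for Solyc09g066030, 2.85 for Solyc12g160670, 1.97 for Solyc07g007040, 1.49 for Solyc09g005420, 0.783 for Solyc02g063547, -2.47 for Solyc01g081250, -1.64 for Solyc07g052900, -1.05 for Solyc09g011160, -0.926 for Solyc12g056650 and -0.888 for Solyc03g031990.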

How the results depend on the processing

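Calls between *slscz* and wild type numbered 2290 to 2998 under the other tests, normalizations, filters and weights, the replicate block (2366) and the models of the lines. No call of a named gene changed direction. At a log2 fold change of at least 1.3, 474 genes were called for *slscz*, 447 for *slscz-hr5*, 396 for *slscz-hr12*, 272 in both lines and 10 between the lines. With quality weights 2995 were called in *slscz-hr5*. Between the lines DESeq2 called 40 genes and the replicate block within *slscz*, chosen after seeing the data, 47. Without TMM 52.1% of the *slscz* calls were higher, so the excess of falls turned, and the median of all genes moved to 0.056 from 0.019. Leaving out each library gave 1438 to 2630 calls for *slscz* (33.4 to 46.2% higher), 1243 to 2163 for *slscz-hr5*, 866 to 1756 for *slscz-hr12*, 678 to 1247 in both lines and 5 to 19 between the lines. The lowest counts came without wild-type library 3, the deepest, except between the lines, where it was *slscz-hr5* library 3. Over all alternatives 136 of 1876 values of named genes lost a call and 12 gained it. Of the lists, no endodermal regulator was called at the log2 threshold and 1 without wild-type library 3 or 4, and no screen factor was called higher without any wild-type library. Without the filter the share called under 5 CPM fell from 8.31 to 3.62%. Without wild-type library 3 it fell to 3.69%, between 5 and 20 CPM from 14.7 to 6.81% and between 20 and 100 CPM from 19.8 to 12.2%. With no fold threshold 28.6% were called at 100 CPM and over and 22.3% between 20 and 100 CPM. The cause of these shifts was not tested.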
